A study of Homo sapiens with 30 samples.

Results

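TET2 regions that overlapped an MBD3 or a TET1 region and lay away from CTCF numbered 348 in HEK293T cells whose CTCF had not been degraded. HEK293T is an established human embryonic kidney line. The 348 regions, called members here, were 26.2% (Wilson 95% interval 23.9% to 28.7%) of the 1326 TET2 regions in the deposited list. They were chosen by the peak calls themselves: a member shared at least 1 bp with an MBD3 or TET1 region and no base with any of 42925 CTCF regions, all from cells without the auxin indole-3-acetic acid (IAA). Their overlap with MBD3 or TET1 and their separation from CTCF are therefore no findings. Of the other TET2 regions, 503 touched none of the 3 proteins, called TET2 alone below, and 475 touched CTCF.

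The cells carried a CTCF edited for auxin-inducible degradation and had been cotransfected with 2 plasmids, pcDNA3.1-ScFv-miniIAA7-mEGFP and pcDNA3.1-AtAFB2-mCherry. Cells of both conditions had the edited CTCF and the plasmids. After transfection, cells with IAA were kept for 72 h in medium with 0.5 mM IAA, and cells without IAA for the same time in medium lacking it, although 1 label names the cells without IAA as DMSO treated. Chromatin immunoprecipitation with sequencing (ChIP-seq) used antibodies against CTCF, MBD3, TET1 and TET2, and with the inputs there were 10 groups of 3 samples, 30 in all. The authors pooled the 3 samples of a group into 1 peak list, 8 lists in all, so no value carries a replicate error. How many reads lie behind each list is unknown, and this number sets how many weak peaks pass the threshold.

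TET1 and TET2 are dioxygenases that oxidise 5-methylcytosine, the first step of active DNA demethylation. TET1 carries a CXXC zinc finger that binds CpG-rich DNA, while TET2 lacks this domain and is brought to chromatin by partners. MBD3 is a methyl-CpG-binding-domain protein of the NuRD complex, which shifts nucleosomes and removes acetyl groups from histones. CTCF is a zinc-finger protein that anchors chromatin loops and insulates neighbouring domains.

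More members had MBD3 than TET1. MBD3 touched 268 of the 348 members, or 77.0% (72.3% to 81.1%), and TET1 touched 202, or 58.0% (52.8% to 63.1%). The MBD3 list was also the longer one away from CTCF, with 2881 regions against 1448 of TET1, and by share 13.3% of those TET1 regions touched a member, against 9.20% of those MBD3 regions. With a −log10 q of at least 10 in every list, CTCF included, the rule gave 42 members, 37 of them among the 348. In these the order turned, with 95.2% with TET1 and 71.4% with MBD3. These 42 had a median TET2 fold of only 2.16, and 73.8% had another TET2 region within 10 kb. At a fold of at least 3 in every list the order held, with 76.8% with MBD3 and 52.6% with TET1. Split by partner, 122 members had both proteins (35.1%), 146 had MBD3 only (42.0%) and 80 had TET1 only. In the class with both, the MBD3 and TET1 regions also overlapped each other at 120 of 122 members. The 268 members with MBD3 met 267 different MBD3 regions, and the 202 with TET1 met 199 different TET1 regions, so nearly every member had its own partner region. In 7 members the partner region itself reached a CTCF region, which lay 6 to 125 bp from the member.

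Members stood somewhat higher in the TET2 list than the other TET2 regions. Fold enrichment and −log10 q are the authors' values for each peak, and their levels are compared only within 1 list. The median TET2 fold was 4.99 in members (quartiles 4.15 and 5.99), against 4.57 in TET2 alone and 4.46 at CTCF. The 95% interval of the median was 4.84 to 5.13 for members, 4.49 to 4.73 for TET2 alone and 4.30 to 4.62 at CTCF. These intervals, like all others given here, cover counting error over regions and not the spread between cultures, and differences between classes were not tested. The median −log10 q was 4.49 in members, 3.48 in TET2 alone and 3.64 at CTCF. A −log10 q of at least 5 was reached by 45.7% of members (40.5% to 50.9%), 28.8% of TET2 alone and 33.5% at CTCF.

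Over all members, the classes by partner differed less in fold than in q. Median TET2 fold was 4.82 with both proteins, 4.99 with MBD3 only and 4.94 with TET1 only. Median −log10 q was 5.63 (5.05 to 6.65), 3.57 (3.13 to 3.92) and 5.31 (4.38 to 6.29) in the same order. Members with MBD3 only thus sat near the level of TET2 alone by q. The values with both proteins depend on members under a TET2 fold of 3. Over the 88 with both at 3-fold or more on chromosomes 1 to 22 and X, median fold was 5.45 and median −log10 q 5.00. Many of the values recur exactly. Of the members, 59.5% shared both values with another TET2 region, as did 61.4% of TET2 alone. The commonest pair, a fold of 5.49 with a −log10 q of 3.57, occurred at 36 TET2 regions, 17 of them members.

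**Figure D1:**
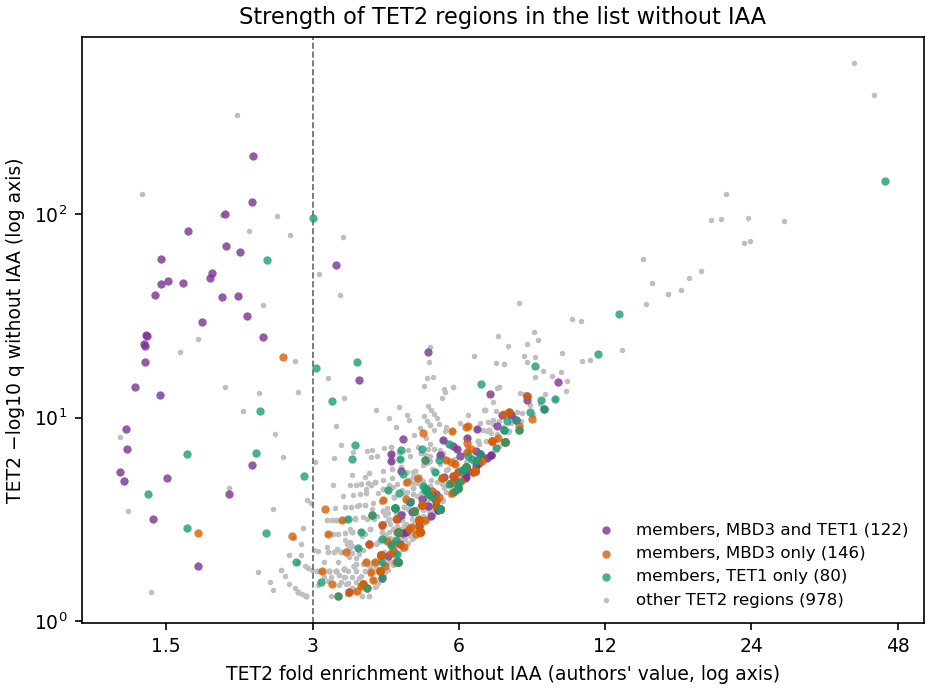
TET2 fold enrichment (x, log axis) against −log10 q (y, log axis) for every TET2 region without IAA, with the 348 members coloured by partner and the other TET2 regions in grey. The dashed line marks a fold of 3, left of which lie 46 members, most of them with both proteins.

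A group of 46 members had a TET2 fold under 3, or 13.2% (10.1% to 17.2%), against 3.78% of TET2 alone and 7.79% at CTCF. By class they were 27.9% of the members with both proteins, 2.05% of those with MBD3 only and 11.2% of those with TET1 only. Several combined a very low fold with a very high significance: 29 members were in the top 10% of the TET2 list by −log10 q and in its lowest 10% by fold, compared with 1 region of TET2 alone and 14 at CTCF. A low fold beside a high −log10 q is a small excess over background that the peak caller nevertheless scored as highly significant.

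Most low-fold members sat in 5 places, which held 33 of the 46. The mitochondrial chromosome held 16, with folds of 1.20 to 2.26 and −log10 q of 4.88 to 194, and these were all of its 16 TET2 regions. Another 5 lay at 92305599 to 92320654 on chromosome 2, 5 at 42399265 to 42540723 on chromosome 10 and 4 at 51579507 to 51589045 on chromosome 11. These intervals on chromosomes 2, 10 and 11 lie beside centromeres. The sequence 9_gl000199_random, assigned to chromosome 9 without a position, held 3. The other 13 lay on chromosomes 1, 3, 9, 12, 17, 18, 19 and 21. They were not all scattered, with 3 at 566123 to 567440 on chromosome 1 and 2 at 27734239 to 27738612 on chromosome 19. The main results below are also given at a fold of at least 3, a split chosen after the values were seen. At that fold and on chromosomes 1 to 22 and X, 300 members remained, with a median fold of 5.26 (5.03 to 5.49), against 4.61 (4.50 to 4.82) for 483 regions of TET2 alone.

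The TET2 region with the highest fold of the whole list was a member, which ranked 5 by −log10 q. It lay at 174219127 to 174219618 on chromosome 2, with TET1 only, at 45.3-fold and a −log10 q of 145. Its TET1 region was weak, at 3.78-fold and place 15250 of 16246 in the TET1 list, and its summit lay 129 bp from that of TET2. The next members with TET1 only, at 66189128 to 66189378 on chromosome 11 and 113499938 to 113500397 on chromosome 1, stood at 12.8- and 11.6-fold TET2 enrichment. No member with both proteins reached 10-fold: the highest fold was 9.59, at 32239683 to 32239867 on chromosome 18, and the next 8.98, at 93495878 to 93496174 on chromosome 13. With MBD3 only, the highest TET2 fold was 8.48, at 78789661 to 78789837 on chromosome 13, and 8.30, at 129598516 to 129598776 on chromosome 7.

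Another region on chromosome 13, with both proteins, was high in the TET2 and MBD3 lists and in the upper part of the TET1 list. At 93495878 to 93496174 it ranked 36 in the TET2 list, 72 of 6608 in the MBD3 list at 10.7-fold, and 5790 of 16246 in the TET1 list at 8.53-fold. The TET2 summit was 22 bp from each of the other summits, between them. The highest MBD3 fold at a member, 11.1, lay at 93013021 to 93013380 on chromosome 5, where TET2 stood at 4.76-fold. The highest TET1 fold at a member, 13.7, lay at 21082148 to 21082417 on chromosome 14, which is 49 bp from a CTCF region. There the TET1 summit was 618 bp from that of TET2.

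Seen from the partner lists, the MBD3 and TET1 regions at members were broader and more significant than others away from CTCF. The 265 MBD3 regions away from CTCF that touched a member had a median −log10 q of 5.20 (4.94 to 5.87), against 3.26 for 2615 without TET2. Their median fold was 5.35 (5.27 to 5.61), against 4.94 (4.84 to 5.02), and their median width 259 bp, against 203 bp. For TET1, 193 regions at members had a median −log10 q of 5.11 (4.39 to 6.12), against 3.12 (2.97 to 3.25) for 1254 without TET2. Their fold had a median of 4.22 in both sets. At a partner fold of at least 3 on chromosomes 1 to 22 and X, median −log10 q was 4.98 at members against 3.26 without TET2 for MBD3, and 4.39 against 3.12 for TET1. The median TET1 fold was then 4.56 at members, against 4.26. The part of region width in these differences was not tested.

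TET1 regions at members were from the lower end of their list. Their median place by fold was at 89.6% of the TET1 list, counted from the strongest, and for TET1 regions without TET2 it was also 89.6%. MBD3 regions at members had a median place at 51.5% of the MBD3 list, against 63.4% without TET2. In the full lists, with low-fold places included, members were met both by the weakest and by the strongest partner regions. In 5 equal groups of MBD3 regions by rising fold, 9.19%, 5.38%, 5.38%, 12.2% and 13.9% touched a member. For TET1 the shares were 20.3%, 7.24%, 9.66%, 11.8% and 17.6%. The lowest group in each list holds the low-fold places named above.

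Members were more frequent where MBD3 and TET1 met. Of 401 MBD3 regions away from CTCF that carried TET1, 29.9% (25.7% to 34.6%) touched a member, against 5.85% (4.99% to 6.84%) of 2480 without TET1. Of 405 TET1 regions away from CTCF that carried MBD3, 28.4% (24.2% to 33.0%) touched a member, against 7.48% (6.03% to 9.24%) of 1043 without MBD3. The rule asked for either protein and not for both. These gaps are read from the same lists that chose the members, and what lies behind them was not tested. At a partner fold of at least 3 and on chromosomes 1 to 22 and X, the shares were 24.2% against 5.77% for MBD3 and 23.1% against 6.69% for TET1. MBD3 regions with TET1 were also broader: away from CTCF and without TET2, their median width was 244 bp, against 198 bp without TET1, and the part of this was not tested. Turned round, 45.3% of MBD3 regions with a member carried TET1, against 10.7% of those without TET2.

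**Figure D2:**
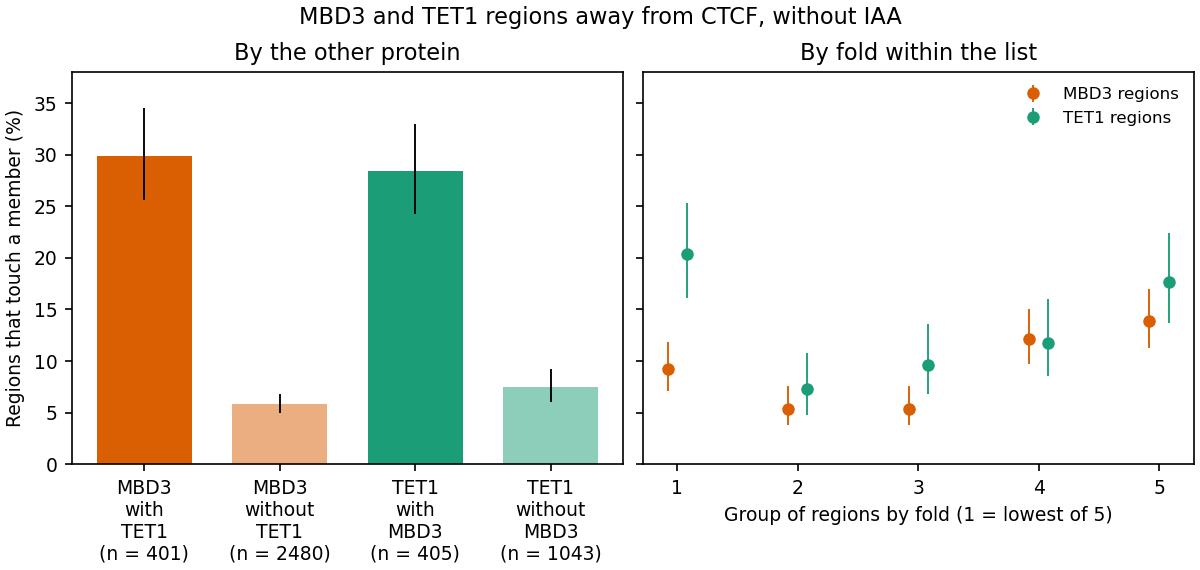
Share of MBD3 and TET1 regions away from CTCF that touched a member (y, percent, with Wilson 95% intervals), by whether they carried the other protein (left) and by group of rising fold within their own list, in 5 groups of equal size (right). Regions with the other protein reached 29.9% and 28.4%, and the right panel shows higher shares at both ends than in the middle for each list. The lowest group includes the low-fold places, and the groups were not drawn again without them.

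TET2 fold and partner fold at a member were positively related. Spearman's rho between TET2 and MBD3 fold was 0.49 over 268 members, and between TET2 and TET1 fold it was 0.72 over 202. Without members under a fold of 3, on chromosomes 1 to 22 and X, rho was 0.20 over 231 and 0.43 over 157. Between −log10 q values, rho was 0.32 for MBD3 and 0.55 for TET1 over all these members. With the same members left out, it was 0.046 and 0.29, so by q almost no relation to MBD3 remained. These are descriptions across positions, which share the pooled libraries and the local background behind each list.

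Summits lay close together. The TET2 summit was a median of 43.5 bp (34 to 52) from the MBD3 summit in 268 members, with quartiles of 17 and 83 bp, and 37.5 bp (28 to 47) from the TET1 summit in 202, with quartiles of 10 and 81.5 bp. Within 50 bp were 54.5% of the MBD3 summits and 59.4% of the TET1 summits. The partner's summit fell inside the TET2 region in 83.2% of members with MBD3 and in 83.7% of those with TET1. Overlap was required by the rule and members were short, with a median width of 189.5 bp, so distances could not be long in most of them. At TET2 regions that touched CTCF, the medians were 42 bp to MBD3 and 60 bp to TET1.

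MBD3 summits were nearer to TET2 where TET1 was also called. The median was 25 bp (20 to 33) in members with both proteins and 57.5 bp (50 to 67) with MBD3 only. Within 50 bp were 68.9% (60.2% to 76.4%) and 42.5% (34.7% to 50.6%). For TET1 no such gap was seen, with medians of 33.5 bp (23 to 50) with both and 41.5 bp (26 to 54) with TET1 only. In the class with both, MBD3 and TET1 summits were 31.5 bp apart, and all 3 summits fell within 50 bp of each other in 45.1% of members. No pair was the closest in most members: TET2 and MBD3 were in 37.7%, MBD3 and TET1 in 34.4%, and TET2 and TET1 in 31.1%, ties included. Neither partner lay to 1 side, since 49.1% of MBD3 summits and 49.7% of TET1 summits had the higher coordinate. At a TET2 fold of at least 3 on chromosomes 1 to 22 and X, the medians were 51 bp to MBD3 and 46 bp to TET1, and with both proteins 33.5 bp to MBD3. The classes also differed in strength. A TET2 −log10 q of at least 5 was reached by 60.7% of members with both and 29.5% with MBD3 only. With that minimum in every list, the median distance to MBD3 was 20 bp. The part of strength in the gap between classes was not tested.

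**Figure D3:**
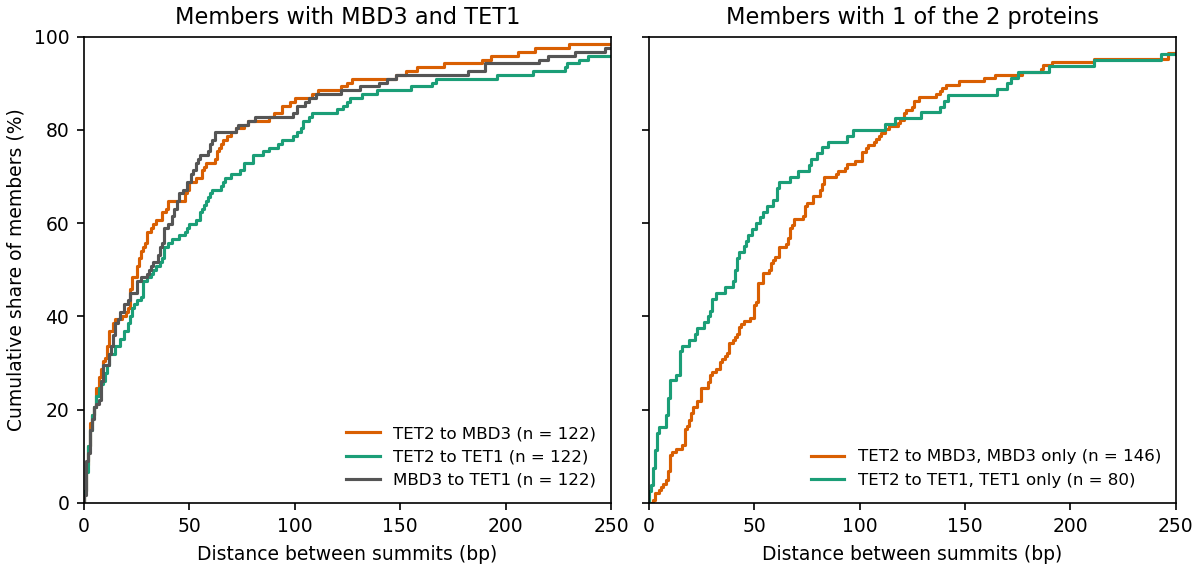
Cumulative share of members (y, percent) by distance between summits (x, bp), for the 122 members with MBD3 and TET1 (left) and for those with MBD3 only or TET1 only (right). TET2 and MBD3 summits were a median of 25 bp apart on the left and 57.5 bp apart on the right.

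Members had TET2 neighbours more often than other TET2 regions. Another TET2 region lay within 10 kb of 20.7% of members (16.8% to 25.3%), against 9.15% (6.93% to 12.0%) of TET2 alone and 9.26% at CTCF. Within 100 kb the shares were 39.4%, 24.7% and 25.7%. At a fold of at least 3 the gap within 10 kb shrank to 11.3% (8.17% to 15.3%) for members, against 9.09% (6.84% to 12.0%) for TET2 alone, and the intervals overlapped. Within 100 kb it was 32.5% (27.4% to 37.9%), against 24.4% (20.8% to 28.4%).

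Most members stood alone, and the dense runs were mainly low-fold places. With gaps of up to 10 kb, the 348 members fell into 310 runs, of which 16 held 2 or more members and 54 members in all. The longest were the 16 on the mitochondrial chromosome and the 5 on chromosome 2 from 92305599 to 92320654, where every member had both proteins. With gaps of up to 100 kb, 29 runs held 2 or more members. The longest of them at ordinary folds lay at 186760579 to 186854508 on chromosome 4, with 4 members at 4.67- to 6.09-fold. A run of 3 at 82061445 to 82104476 on chromosome 9 consisted of members with MBD3 only, at 3.22- to 3.91-fold. With gaps of up to 1 Mb it grew to 6 members over 711 kb, all with MBD3 only.

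The median gap to CTCF was longer in members than in TET2 alone, although neither class touches CTCF. For members with TET1 only, the shares near CTCF were much as in TET2 alone. The gap to the nearest CTCF region had a median of 17553 bp (15269 to 20665) in 332 members on sequences with a CTCF region, against 12730 bp (10374 to 15126) in TET2 alone. A CTCF region within 1 kb was found at 7.76% of members (5.39% to 11.1%) and at 16.3% (13.3% to 19.8%) of TET2 alone. At a fold of at least 3 on chromosomes 1 to 22 and X, the medians were 18038.5 and 12757 bp. By class, 6 of 146 members with MBD3 only had CTCF within 1 kb, and 12 of 80 with TET1 only.

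**Figure D4:**
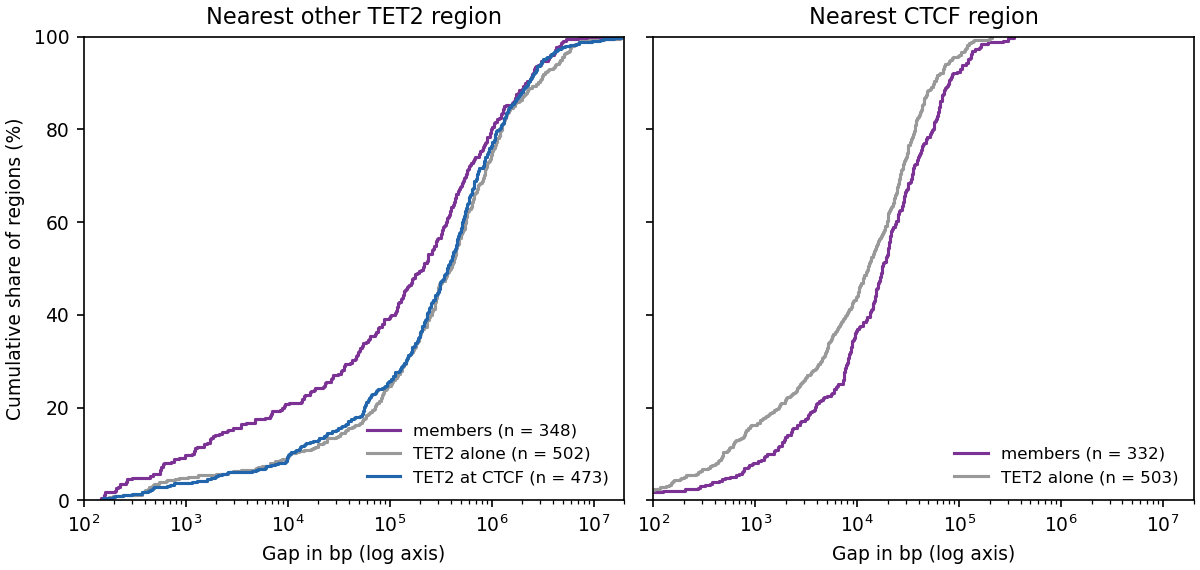
Cumulative share of regions (y, percent) by gap to the nearest other TET2 region (left) and to the nearest CTCF region (right), both without IAA and on a log axis in bp. Members run above the other classes on the left, with 20.7% within 10 kb, and to the right of TET2 alone in the CTCF panel.

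A few regions sat at the edge of the rule. The members with the fewest shared bases lay at 170948497 to 170948807 on chromosome 4, with 6 bp of MBD3, and at 7475486 to 7475684 on chromosome 10, with 12 bp of TET1. Just outside were 84011559 to 84011710 on chromosome 9, which adjoined an MBD3 region without sharing a base, and 31902226 to 31902392 on chromosome 12, which lay 4 bp from one. The members nearest to CTCF were at 75544093 to 75544243 on chromosome 7, 6 bp away, and at 12973593 to 12973851 on chromosome 8, 41 bp away. The TET2 regions left out with the least CTCF overlap lay at 138466493 to 138466669 on chromosome 4, by 10 bp, and at 35695869 to 35696084 on chromosome 22, by 12 bp. This last pair was picked after the values were seen.

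On chromosomes 1 to 22 and X there were 327 members. Chromosomes 10, 4 and 6 held the most. Chromosome 10 had 34, or 10.4% (7.54% to 14.2%), against 7.17% of TET2 alone and 4.47% of the listed length. It also held 10.0% of MBD3 regions and 8.83% of TET1 regions away from CTCF. Chromosome 4 had 31, chromosome 6 had 30 and chromosome 1 had 29. The order among these is not firm: at a fold of at least 3, chromosome 4 had 31, chromosome 6 had 30 and chromosome 10 had 29 of 300 members. Chromosome 13 held 24 members, or 7.34% (4.98% to 10.7%), against 3.98% of TET2 alone and 3.79% of the length. Chromosome 16 had 1 member, or 0.306% (0.0540% to 1.71%), and 13 regions of TET2 alone, or 2.59%. Away from CTCF it had 18 MBD3 regions, or 0.630%, and 29 TET1 regions, or 2.05%. Chromosome X had 3 members on 5.12% of the length, with 1.47% of MBD3 and 2.76% of TET1 regions away from CTCF.

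The chromosomes of members resembled those of MBD3 away from CTCF. The share of members that would have to move to another chromosome to match was 9.94% for 2857 MBD3 regions away from CTCF. For 1415 TET1 regions away from CTCF it was 14.0%. It was 17.9% for 502 regions of TET2 alone, 23.3% for 466 of TET2 at CTCF and 21.3% for chromosome length. With regions under 3-fold left out, it was 10.9% for MBD3 and 15.1% for TET1 away from CTCF, 20.1% for TET2 alone and 25.7% for TET2 at CTCF. Since 77.0% of members touch MBD3, part of this likeness comes with the rule. Among the lists compared, the order also follows list length. Counting error raises the share to be moved more in a shorter list, and it was not corrected for. In segments of 10 Mb, the fullest lay at 60 to 70 Mb on chromosome 13, with 9 members, followed by 70 to 80 Mb on the same chromosome and 80 to 90 Mb on chromosome 9, with 7 each. In this order, these 3 segments held 72, 44 and 28 MBD3 regions and 68, 29 and 15 TET1 regions away from CTCF. They held 9, 4 and 6 regions of TET2 alone. Whether members exceeded the density of these lists was not tested. No member of these 3 segments had a fold under 3. Ends of chromosomes were not favoured, with 8.87% of members within 5 Mb of an end (6.25% to 12.4%), 8.76% of TET2 alone and 7.58% of the length.

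**Figure D5:**
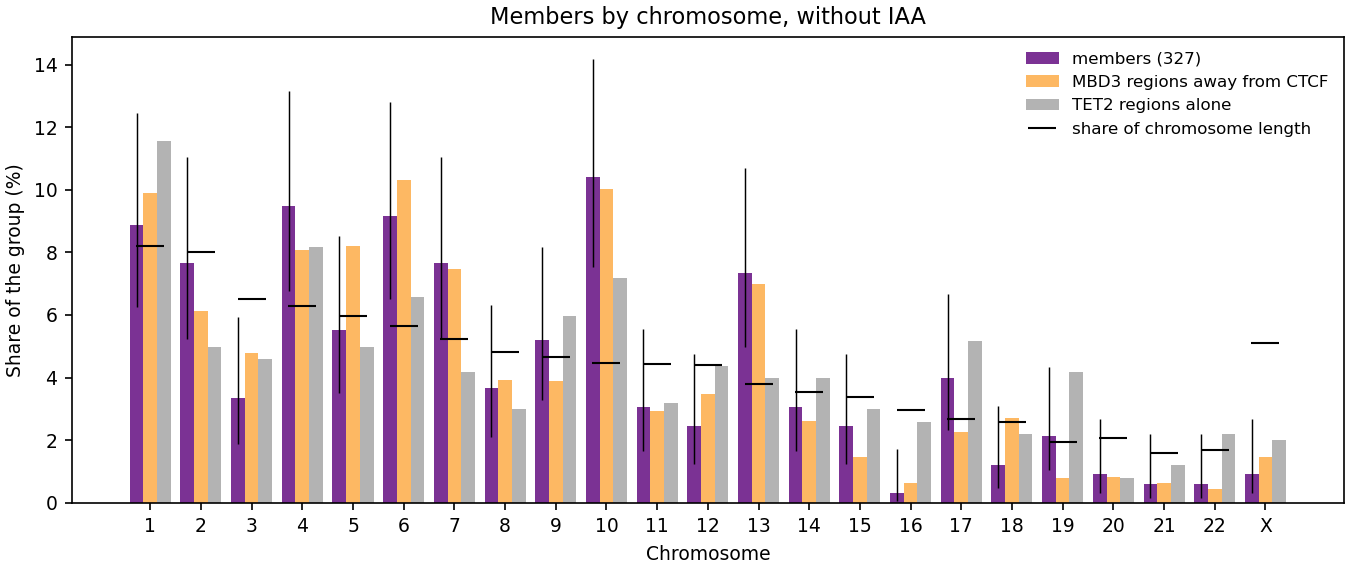
Share of members on each chromosome (purple, with Wilson 95% intervals), of MBD3 regions away from CTCF (orange) and of TET2 regions alone (grey), with the share of chromosome length as a black mark (y, percent of each group). Chromosome 10, with 10.4% of members, and chromosome 13, with 7.34%, stand above their share of length. So do the MBD3 regions away from CTCF on these chromosomes, and chromosome 16 holds 1 member.

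With IAA, nearly all members, like nearly all of the 1326 TET2 regions, were no longer called by any antibody. The TET2 list with IAA touched 3 of the 348 members, or 0.862% (0.294% to 2.50%), while it touched 0.452% of all 1326 TET2 regions. MBD3 with IAA touched 8, a share with an interval of 1.17% to 4.47%, against 0.98% of all. TET1 with IAA touched 6, or 1.72% (0.793% to 3.71%), against 1.28%. CTCF with IAA touched 1, or 0.287% (0.0507% to 1.61%), against 0.679%. The MBD3, TET1 and CTCF lists with IAA held only 50, 325 and 63 regions, so few members could be met, whereas the TET2 list had grown to 3022. The background share lay inside the interval of the members for TET2, TET1 and CTCF, and below it for MBD3. All 8 members met by MBD3 had a TET2 fold under 3.

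The 10 members met by some list with IAA, or 2.87% (1.57% to 5.21%) against 1.96% of all TET2 regions, were all low-fold places. Of these, 4 were on the mitochondrial chromosome, 3 on chromosome 2 between 92316229 and 92320654, 2 on chromosome 10 at 42399265 to 42399487 and 42529309 to 42529604, and 1 on chromosome 1 at 567290 to 567440. Their TET2 fold without IAA was under 2.5 in each. TET2 was called again at 3 of them. On chromosome 1, at 567290 to 567440, the TET2 summits with and without IAA were 5 bp apart. On chromosome 2, at 92316229 to 92316686, MBD3 and TET1 were called with IAA as well, and the TET2 summits were 458 bp apart. The third, named after the values were seen, lay at 10516 to 10744 on the mitochondrial chromosome.

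Of the 302 members with a fold of at least 3, 0 were touched by any list with IAA, which allows a share of up to 1.26% (Wilson upper bound). In TET2 alone at that fold it was 1 of 484, and at CTCF 5 of 438, by TET1. The gap to the nearest TET2 region with IAA had a median of 463781 bp (388864 to 550619) in members and 462830 bp (386414 to 550330) in TET2 alone. At short range, members had such a region more often: within 10 kb it was 8.33% (5.86% to 11.7%) of members. It was 0.994% (0.425% to 2.31%) of TET2 alone and 3.79% (2.41% to 5.91%) at CTCF. On chromosomes 1 to 22 and X it was 3.98% (2.34% to 6.68%), against 0.996% of TET2 alone. At CTCF it was then 3.86%, much as in members. Among regions at 3-fold or more the share was 1.32% (0.516% to 3.36%) in members and 0.620% (0.211% to 1.81%) in TET2 alone. At CTCF it was 2.97% (1.74% to 5.01%), above that of members, and the intervals overlapped. With 1 pooled list per condition, the difference between the conditions has no replicate check.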

How the data were processed

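The authors deposited 1 peak list for each antibody and condition, each pooling 3 samples. Per the submitters' processing notes, MACS2 2.1.2, Bowtie2 2.3.4, bedtools 2.25.0, SAMtools 1.9, FastQC 0.11.7 and the build hg19 were used, with no step named. The peak caller's control was not given in the sources used here. The deposited lists hold a fold enrichment (a ratio), −log10 of the q-value and a summit offset for each peak, all other than read counts, as the authors' peak caller wrote them.

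Rows of 1 list that shared a base were joined with Python 3.11.15 and NumPy 2.4.6. A joined region took the maximum fold and the maximum −log10 q of its rows, and the summit of its most significant row. A region touches another when at least 1 bp is shared. Shares have Wilson 95% intervals and medians have order-statistic 95% intervals (SciPy 1.17.1). Regions are not replicates, so no test was made. Overlap and distances were checked on simulated lists. Coordinates are hg19, counted from 1. Chromosome length is the highest listed position. Gene names and sequences were not used, since no annotation of that build was at hand.

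Named regions, on chromosomes 1 to 22 and X, were the 5 members of highest TET2 fold in each class, the 3 of highest MBD3 and TET1 fold, those touched with IAA, the longest runs and the 2 on each side of the rule's edges. The strongest of these are printed. The members, lists and rules were chosen with earlier results of these data known. Alternatives were a reciprocal overlap of 50%, a summit distance of up to 200 bp in place of overlap, minimum −log10 q of 5 or 10, minimum fold of 3, unjoined rows, chromosomes 1 to 22 and X, a margin of 1 or 10 kb to CTCF, and leaving out TET2 regions met by a list with IAA.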

Additional observations from a re-analysis of the deposited data

How the results depend on the processing

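The main values were 348 members, 26.2% of TET2 regions, 77.0% with MBD3, 58.0% with TET1, a median TET2 fold of 4.99, summit distances of 43.5 bp to MBD3 and 37.5 bp to TET1, 20.7% with a TET2 neighbour within 10 kb and 0.862% kept as TET2 with IAA. Of 98 values under 11 alternatives, 70 stayed within the interval of the main value, or within 1.5 times for the number of members. With −log10 q of at least 5 in every list, there were 123 members, 70.7% with MBD3 and 69.1% with TET1, with a median fold of 5.80, summits 20 and 10 bp from MBD3 and TET1, and 33.3% with a neighbour. At 10 there were 42 members, 71.4% with MBD3 and 95.2% with TET1, with a median fold of 2.16, distances of 6 and 4.5 bp, 73.8% with a neighbour and 4.76% kept. Of these 123 and 42 members, 106 and 37 were among the 348, since weaker CTCF regions were left out as well. A fold of at least 3 in every list gave 52.6% with TET1, a median fold of 5.22, 9.60% with a neighbour and 0% kept. Applied to the TET2 list only, with the other lists as deposited, it gave 52.6%, 5.22, 10.3% and 0%. This alternative was chosen after seeing the data. An overlap of 50% of both regions gave 70.7% with MBD3 and 0.287% kept. It again counted 348 members, but only 274 were the same regions, since it also admits regions that touch CTCF slightly. With no CTCF region within 10 kb there were 225 members, or 17.0%. On chromosomes 1 to 22 and X, 15.9% had a neighbour. No paired analysis was possible because the 3 samples of each group were pooled into 1 list, and for the same reason no sample could be left out. Read depth, which is unknown, limits how many weak regions each list holds.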
